A study of Homo sapiens with 15 samples.

Results

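The genes described here are 34 neuronal and synaptic genes among the 55773 genes of a table of normalised read counts from human HEK293-derived cells. They were chosen from a written list of neuronal cytoskeleton, synaptic vesicle, granule, adhesion and transport genes, and that list also took in genes already seen to switch on or off in these libraries. RPH3A, TENM1, NALCN, SLC6A11, DLGAP1 and SLC24A2 are treated as the 6 genes chosen by their measured values, so their levels are given as a description with no test. The other 28 are treated as chosen by function and were tested. The list does not say which genes came in for their values, and a gene tested here, such as SYT1, may be one of them.

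The series measured poly(A) RNA by RNA-seq after raising or lowering ZC3H7A and ZC3H7B, a pair of related CCCH zinc finger RNA-binding proteins, in 5 groups of 3 libraries. The ZC3H7A and ZC3H7B groups were Flp-In T-REx 293 cells, which take up a transgene at a fixed site, with Flag/HA-tagged ZC3H7A or ZC3H7B, and the control group carried the Flag/HA tag alone. All 3 of these groups received doxycycline, at 1 µg/mL for 24 h, and were lysed in a hypotonic detergent buffer. The DD group (double depletion) combined a knockout of ZC3H7A with an shRNA to ZC3H7B, and the Parental group was wild type with a control shRNA. Both were selected with puromycin at 5 µg/mL and taken off it 2 passages before collection, and a company made their libraries by another protocol, so the experiments were not tested against each other. The labels call the overexpression replicates independent. Whether the DD and Parental samples were separate cultures, and whether a transgene or the knockout was carried by 1 clone or by several lines, is not stated in the sources used here. The p-values below therefore measure the spread between samples of a group, which may be technical, and not the spread between lines.

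At a synapse, transmitter-filled vesicles are held near the membrane by synapsins and Rab effectors and are fused by SNARE proteins, with complexin as a clamp and synaptotagmin as the calcium sensor. Dense-core granules, which carry peptides and amines, are filled with chromogranins, and axons are built on neurofilaments and on microtubules rich in particular tubulins and microtubule-associated proteins. Outside neurons many of these genes are held down by the repressor REST, which binds a DNA element known as RE1. HEK293 cells came from an embryonic kidney culture but are known to make neurofilaments and other neuronal products.

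The promoter sequences of 26 of the 34 genes were found in the RefSeq table (GRCh38.p14), in 53 windows that run from 250 bases before a transcription start to 50 after it. SNAP25, CHGB, STMN2, NEFL, NEFM, NEFH, ELAVL3 and NCAM1 had no entry. Both strands were searched for the left core of RE1, CAGCACC, for its right core, GGACAG, and for both cores 2 bases apart, in which they do not overlap. The paired cores were present in windows of RPH3A and SYN1, 2 of 26 genes (7.69%), against 18 of 35116 windows (0.0513%) and 16 of 27305 genes (0.0586%) in the whole table. The left core alone or paired was found in 4 of the 26 genes (15.4%, against 9.3% of all genes) and the right core in 10 (38.5%, against 24%). These shares per gene are not like for like, since a gene with more windows has more chances of a match. The 26 genes had 53 windows, while all 27305 genes had 35116. Per window, 7.75% of the 35116 held the left core and 20.5% the right core. The part of window number in the shares per gene was not tested. A match is a string of letters and not a measured binding site. The sequences below are given for RPH3A and SYN1 because they hold the pair, and for INA and SYP because these are abundant vesicle or filament genes that were higher in all 3 perturbed groups and hold no pair. Capitals mark the cores, with the 2 bases between them where both are present. RPH3A has 3 windows and the pair lies in the 2 downstream ones, which overlap. The window shown is chr12:112791498-112791797 on the plus strand. SYN1 lies at chrX:47619808-47620107 on the minus strand, INA at chr10:103276888-103277187 on the plus strand and SYP at chrX:49200144-49200443 on the minus strand, each read 5′ to 3′.
RPH3A: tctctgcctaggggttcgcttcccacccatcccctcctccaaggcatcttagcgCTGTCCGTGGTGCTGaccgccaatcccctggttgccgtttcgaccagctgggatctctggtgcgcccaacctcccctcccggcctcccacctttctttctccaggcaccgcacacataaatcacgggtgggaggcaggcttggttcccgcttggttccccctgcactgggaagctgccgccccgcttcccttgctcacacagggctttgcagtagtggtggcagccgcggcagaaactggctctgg
SYN1: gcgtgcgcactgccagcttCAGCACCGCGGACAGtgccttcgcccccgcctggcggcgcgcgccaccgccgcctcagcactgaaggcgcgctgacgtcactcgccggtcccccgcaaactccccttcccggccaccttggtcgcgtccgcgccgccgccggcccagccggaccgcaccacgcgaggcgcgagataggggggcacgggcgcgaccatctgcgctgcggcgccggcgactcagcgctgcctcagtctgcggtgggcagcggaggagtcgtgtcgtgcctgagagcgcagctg
INA: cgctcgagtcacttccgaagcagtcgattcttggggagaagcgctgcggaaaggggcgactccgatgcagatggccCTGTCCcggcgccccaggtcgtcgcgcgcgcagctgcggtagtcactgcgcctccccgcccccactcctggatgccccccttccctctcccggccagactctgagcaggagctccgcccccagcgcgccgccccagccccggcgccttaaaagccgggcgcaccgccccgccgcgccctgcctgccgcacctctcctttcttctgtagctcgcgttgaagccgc
SYP: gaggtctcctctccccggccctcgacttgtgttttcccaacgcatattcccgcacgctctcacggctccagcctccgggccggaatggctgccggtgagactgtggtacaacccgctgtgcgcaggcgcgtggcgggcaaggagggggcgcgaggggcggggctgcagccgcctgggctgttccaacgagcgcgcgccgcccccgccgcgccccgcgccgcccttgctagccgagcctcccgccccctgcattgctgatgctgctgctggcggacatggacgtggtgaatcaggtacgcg

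The overexpression libraries held 45.5 to 57.6 M reads each, with 1 read worth 0.461 to 0.641 normalised counts. The depletion libraries were shallower, at 12.2 to 15.5 M reads, with 1 read worth 1.89 to 2.47. ZC3H7A was 10545, 10131 and 12898 in the ZC3H7A libraries, against 3180, 3374 and 3223 in control. ZC3H7B was 28082, 26712 and 26632 in the ZC3H7B libraries, against 5951, 5818 and 6044 in control. In DD cells ZC3H7B was 999.8, 1168 and 1083, against 5948, 6484 and 6958 in Parental cells, while ZC3H7A reads overlapped (1640, 1561 and 1771 in DD, against 1585, 1528 and 1684 in Parental; limma adjusted p = 0.666), and gene-level reads do not show whether a knocked-out gene still makes protein. Of 18 kidney epithelium markers, 8 to 10 had a group mean of at least 10, led by EPCAM and LRP2 in every group. Markers of mature segments differed: AQP2 and CDH16 were at or near 0 throughout. Group means were 13.3 to 29.7 for CUBN, 18 to 28.2 for AQP1 and 1035 to 2745 for LRP2. Summed kidney markers were 4224 to 4497 in ZC3H7A, 4584 to 4776 in ZC3H7B and 5565 to 5715 in control libraries, and 4242 to 4388 in DD against 4527 to 5322 in Parental libraries. Summed glial markers, mostly CNP, SLC1A3 and MBP, were 6854 to 7594 in ZC3H7A, 6605 to 6912 in ZC3H7B and 5261 to 5322 in control libraries, and 7370 to 7686 in DD against 6246 to 6810 in Parental libraries, with GFAP and SOX10 under 10 in every group. Of 11 chromaffin and sympathetic markers 4 to 6 had a mean of at least 10, with TH at 0 in every group, and their sum was 963.2 to 1048 in ZC3H7A, 1188 to 1235 in ZC3H7B and 1160 to 1213 in control libraries, and 459.2 to 473.4 in DD against 761.6 to 875.8 in Parental libraries. Fibroblast markers summed to at most 355.1 and leukocyte markers to at most 109.5 in any library. The part of these markers in the results below was not tested.

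HEK293 cells of every group carried some of these transcripts at high levels and others barely at all. Levels were set per kilobase of the transcript with the longest coding sequence. UCHL1, a ubiquitin hydrolase abundant in neurons, led in each group, at a level of 21449 normalised reads per kilobase in ZC3H7A, 25987 in ZC3H7B and 16045 in control cells, and 11045 in DD against 14778 in Parental cells. VAMP2 (synaptobrevin 2, the SNARE protein of the vesicle), the light neurofilament subunit NEFL, TUBB2B, DPYSL3, MAP1B and INA followed in control cells, between 2724 and 363.6 per kilobase. These levels and their order depend on the transcript used. That of UCHL1 has 785 bases and that of VAMP2 874, while all annotated exons of these genes cover 2282 and 3268 bases. At the other end, STMN2, a tubulin-binding protein of growing axons, had 0 to 2 reads per group, DCX (doublecortin), found in migrating neurons, 0 to 4, and ELAVL4, a neuronal Hu protein, 0 to 2. The sister Hu genes differed widely, since ELAVL2 stood between 216.9 and 253.4 per kilobase in all groups and ELAVL3 between 0.619 and 2.14. The neurofilament subunits were as unequal: per kilobase, control cells had 1172 of NEFL, 7.91 of NEFM and 5.8 of NEFH. In these bulk samples, fewer cells with a transcript and less of it per cell cannot be told apart.

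**Figure D1:**
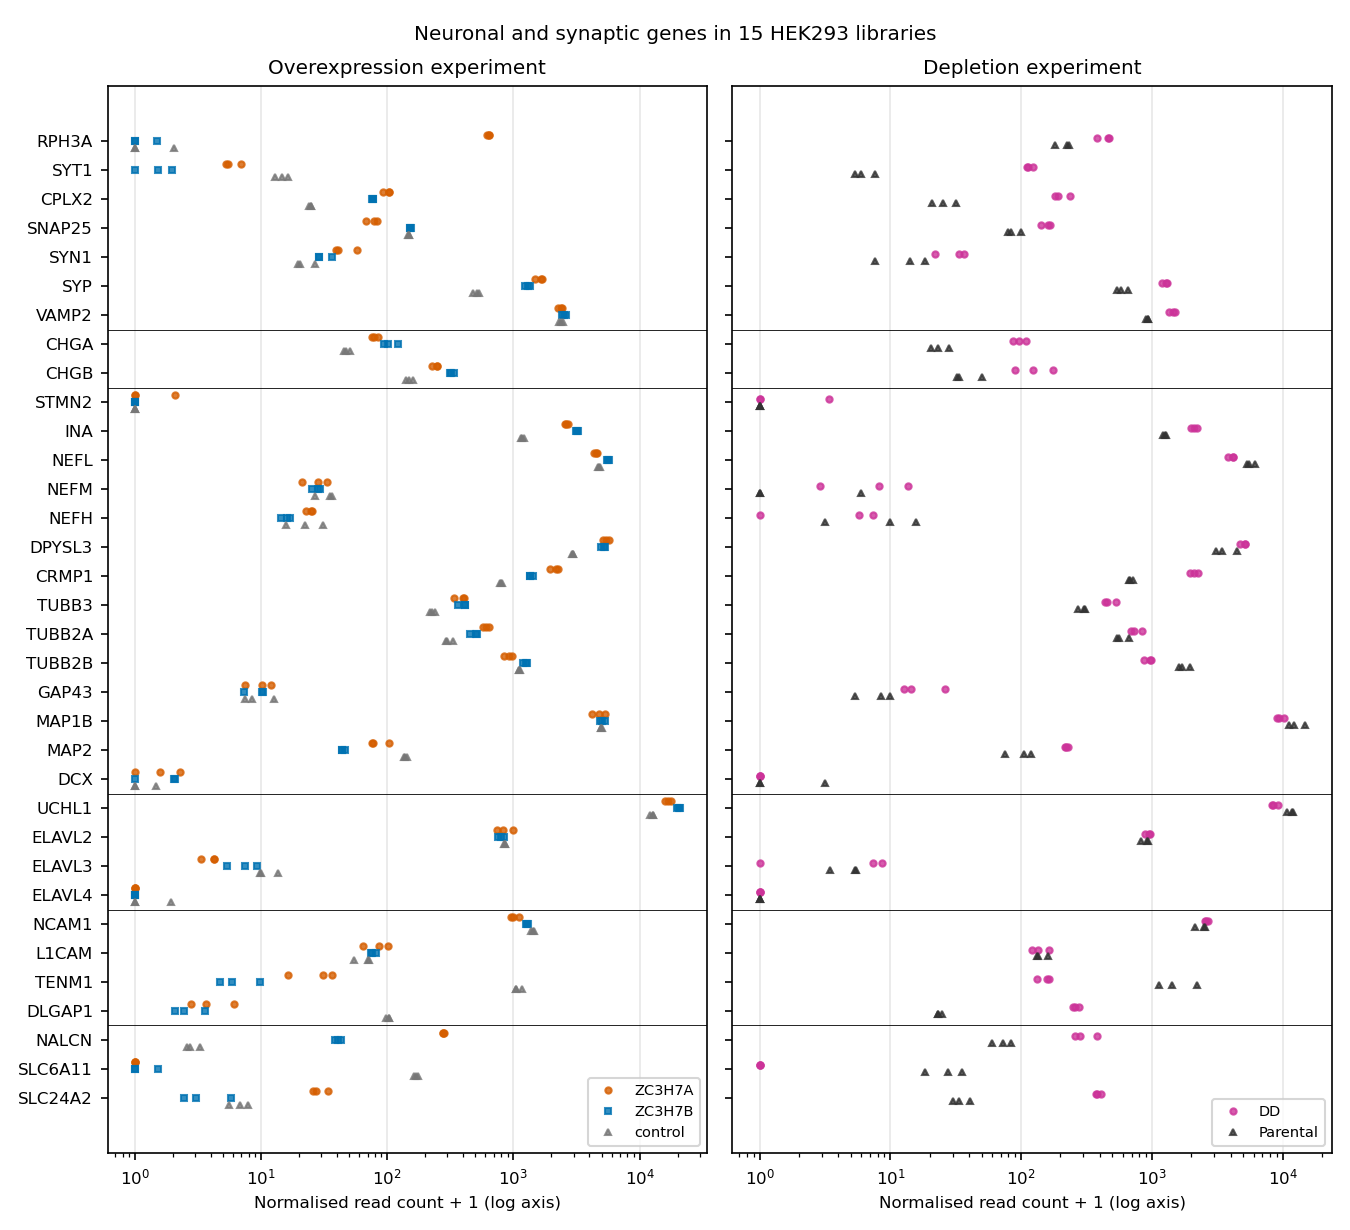
Normalised read counts plus 1 (log axis) of the 34 genes, 1 point per library, in the ZC3H7A, ZC3H7B and control libraries (left) and the DD and Parental libraries (right), with lines between functional classes. UCHL1 lies farthest right in the 3 overexpression groups and MAP1B in the DD and Parental groups, and STMN2, DCX and ELAVL4 lie at the left edge.

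Among the tested genes, each call rests on limma applied to log2 of the normalised count plus 1, over genes that reached a count of 10 in 3 or more libraries of the fit, with Benjamini-Hochberg adjustment over all of them. In ZC3H7A over control, 23 of the 28 genes were tested, and 11 rose (47.8%, against 34.7% of all tested genes), 6 fell (26.1%, against 41.2%) and 6 did not pass. CPLX2, SYN1, SYP, INA and CRMP1 rose at least 2-fold, 5 of 23 against 4.02% of all genes, and SYT1 fell at least 2-fold, 1 of 23 against 10.3%. Their median log2 fold change was 0.34, beside -0.07 over all tested genes. In ZC3H7B over control, 13 of 23 rose (56.5%, against 32%), 3 fell (13%, against 37.6%) and 7 did not pass, with a median log2 fold change of 0.25 beside -0.06. CPLX2, SYP, CHGA, CHGB and INA rose at least 2-fold, 5 of 23 against 1.91%, and SYT1 and MAP2 fell at least 2-fold, 2 of 23 against 7.86%. Both comparisons use the same 3 control libraries. SYT1 reached a count of 10 in only 1 group of each comparison, so it passed the filter through the group in which it is high and its calls support nothing. Without it, 11 of 22 rose and 5 fell with ZC3H7A (50% and 22.7%), and 13 of 22 rose and 2 fell with ZC3H7B (59.1% and 9.09%). Of these 22 genes, 5 rose and 0 fell at least 2-fold with ZC3H7A, and 5 rose and 1 fell at least 2-fold with ZC3H7B. In the overexpression fit STMN2, GAP43, DCX, ELAVL3 and ELAVL4 were too low to test.

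In ZC3H7A over ZC3H7B, which use no control library, 8 of 23 rose (34.8%, against 23.9%) and 8 fell (34.8%, against 20.4%), and 7 did not pass. SYT1 was at least 2-fold higher and SNAP25 at least 2-fold lower in ZC3H7A than in ZC3H7B cells, 1 of 23 each, against 1.79% and 1.5% of all genes. SYT1 averaged under 10 in both of these groups and entered the fit through the control libraries, so its call is no support here either. Without it 7 of 22 rose (31.8%) and 8 fell (36.4%), and 0 rose and 1 fell at least 2-fold. The median log2 fold change was -0.02, beside 0.01 over all genes. In DD over Parental, 22 genes were tested, and 14 rose (63.6%, against 14.7%), 4 fell (18.2%, against 14.8%) and 4 did not pass, with a median log2 fold change of 0.72 beside 0.01. SYT1, CPLX2, SYN1, SYP, CHGA, CHGB, CRMP1 and MAP2 rose at least 2-fold, 8 of 22 against 1.66%, and none fell at least 2-fold, 0 of 22 against 2.61%. The falls were NEFL, TUBB2B, MAP1B and UCHL1, and their share was close to that of all genes. SYT1, which rose, and GAP43, which did not pass, reached 10 only in DD cells, so neither is support. Without them 13 of 20 rose (65%) and 4 fell (20%). Of these 20 genes, 7 rose and 0 fell at least 2-fold. STMN2, NEFM, NEFH, DCX, ELAVL3 and ELAVL4 were too low to test in this fit.

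**Figure D2:**
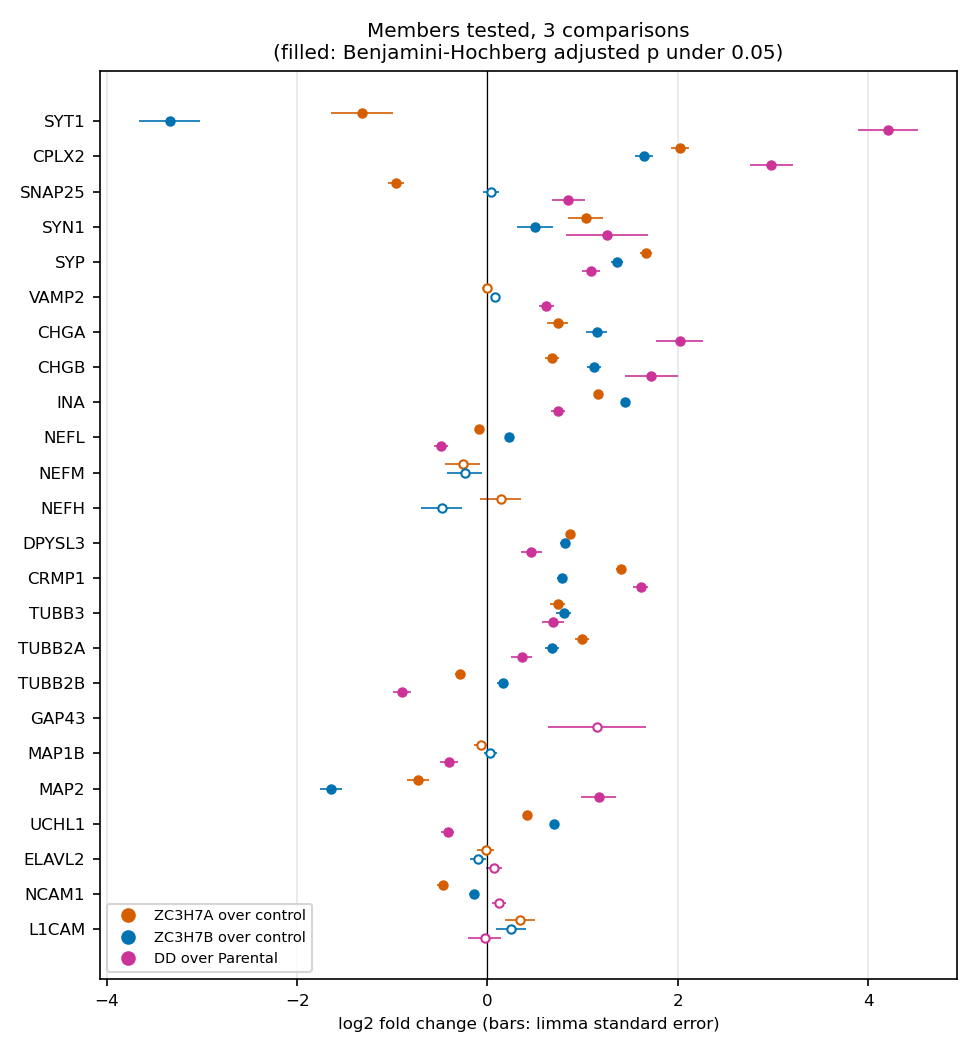
Log2 fold changes of the tested genes in ZC3H7A over control, ZC3H7B over control and DD over Parental cells, with limma standard errors as bars and filled points for an adjusted p under 0.05. CPLX2, SYN1, SYP, CHGA, CHGB, INA, DPYSL3, CRMP1, TUBB3 and TUBB2A lie right of 0 in all 3 comparisons, and SYT1 and MAP2 lie left of 0 with overexpression and right of 0 with depletion.

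The synaptic vesicle genes CPLX2, SYP and SYN1 rose in all 3 perturbed groups. CPLX2, which encodes complexin 2, the clamp on SNARE complexes, had 103.3, 92.1 and 101.9 normalised counts in ZC3H7A, 76.9, 75.7 and 75.4 in ZC3H7B and 23.1, 24 and 23.8 in control libraries. In the depletion experiment CPLX2 had 181.8, 189.5 and 233.8 in DD, against 24.4, 19.7 and 30.5 in Parental libraries. No perturbed library overlapped its own controls. The log2 fold change of CPLX2 was 2.02 (SE 0.0946, limma adjusted p = 5.27e-09) for ZC3H7A, 1.64 (SE 0.0946, limma adjusted p = 3.99e-08) for ZC3H7B and 2.98 (SE 0.226, limma adjusted p = 3.20e-06) for DD. CPLX2 was also higher in ZC3H7A than in ZC3H7B cells, by a log2 fold change of 0.38 (SE 0.0946, limma adjusted p = 0.00661).

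SYP, the abundant vesicle membrane protein synaptophysin, had 1693, 1648 and 1491 in ZC3H7A, 1312, 1349 and 1229 in ZC3H7B and 531.5, 512.3 and 474.4 in control libraries. DD libraries had 1299, 1199 and 1287 of SYP, against 544.0, 660.7 and 581.7 in Parental libraries. The lowest perturbed library stood well above the highest library of its control group in both experiments. SYP gave log2 fold changes of 1.67 (SE 0.0633, limma adjusted p = 1.43e-09) for ZC3H7A, 1.36 (SE 0.0633, limma adjusted p = 1.11e-08) for ZC3H7B and 1.09 (SE 0.0925, limma adjusted p = 7.17e-06) for DD.

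SYN1 encodes synapsin I, which tethers vesicles to actin, and is a low transcript here. It had 56.4, 39.6 and 38.5 in ZC3H7A, 35.7, 27.9 and 27.6 in ZC3H7B and 25.8, 19.5 and 18.5 in control libraries. DD libraries had 32.2, 35.5 and 21.1, against 6.66, 17.3 and 13.1 in Parental libraries, which is 42 reads against 16 over the groups, a ratio of 2.42 with a 95% counting interval of 1.33 to 4.62. None of these groups overlapped its controls. The log2 fold change of SYN1 was 1.03 (SE 0.186, limma adjusted p = 2.72e-04) for ZC3H7A, 0.50 (SE 0.186, limma adjusted p = 0.0301) for ZC3H7B and 1.26 (SE 0.431, limma adjusted p = 0.0463) for DD. The ZC3H7B call was lost without ZC3H7B replicate 1 (adjusted p = 0.121) and without control replicate 2 or 3 (0.09 and 0.106), and the DD call without DD replicate 1 or 2 (0.142 and 0.146) or Parental replicate 1 (0.141).

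SNAP25, VAMP2 and SYT1, the other vesicle genes tested, did not pass upward in either overexpression comparison of the fit described above. SNAP25, a SNARE protein of the presynaptic membrane, had 66.7, 81.4 and 77.6 in ZC3H7A, 149.3, 154.1 and 151.3 in ZC3H7B and 148.6, 148.3 and 143.9 in control libraries. The ZC3H7A libraries were the lowest, and the ZC3H7B and control libraries lay next to each other. Its log2 fold change was -0.96 (SE 0.0854, limma adjusted p = 7.61e-07) for ZC3H7A over control, -1.01 (SE 0.0854, limma adjusted p = 2.02e-06) for ZC3H7A over ZC3H7B and 0.04 (SE 0.0854, limma adjusted p = 0.655) for ZC3H7B over control. DD libraries had 142.0, 158.7 and 166.4 of SNAP25, against 77.7, 98.6 and 82.8 in Parental libraries, a rise of 0.85 on the log2 scale (SE 0.171, limma adjusted p = 0.00303). VAMP2 averaged 2364 ± 96.2 in ZC3H7A, 2516 ± 108.9 in ZC3H7B and 2380 ± 74.2 in control libraries (SD, n = 3 each), which overlapped, and it passed neither test (limma adjusted p = 0.85 and 0.16). In DD libraries VAMP2 averaged 1429 ± 79.3, against 926.0 ± 22.7 in Parental libraries, and rose by 0.62 on the log2 scale (SE 0.0772, limma adjusted p = 1.15e-04). Another gene annotated on the same strand overlaps 13.2% of the exonic bases of VAMP2, so its count is uncertain.

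SYT1, synaptotagmin 1, the calcium sensor of fast release, was lower than control with both overexpressions and higher than Parental with depletion. It had 4.49, 4.28 and 5.92 in ZC3H7A, 0.979, 0 and 0.52 in ZC3H7B and 12, 13.7 and 15.3 in control libraries. DD libraries had 123.1, 109.0 and 111.6, against 6.66, 4.93 and 4.36 in Parental libraries, and no groups overlapped. In reads over a group, SYT1 was 2.78-fold lower in ZC3H7A than in control cells (25 against 79 reads, 95% interval 1.76 to 4.56), 26.4-fold lower in ZC3H7B cells (3 against 79 reads, 8.72 to 130.9) and 21.6-fold higher in DD than in Parental cells (164 against 7 reads, 10.3 to 54.6). These intervals, like all intervals and bounds given here, cover counting error only. No p is given for SYT1, since it passed the filter through 1 group. SYT1 was also 9.49-fold higher in ZC3H7A than in ZC3H7B cells (25 against 3 reads, 2.9 to 49.1).

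RPH3A, rabphilin 3A, a RAB3 effector on synaptic vesicles, was close to absent in 2 of the 5 groups, and is treated as chosen by its values. It had 634.4, 614.1 and 638.4 in ZC3H7A, 0.49, 0 and 0 in ZC3H7B and 0, 0 and 1.06 in control libraries. DD libraries had 380.6, 471.5 and 463.4, against 182.1, 221.9 and 230.9 in Parental libraries. RPH3A was thus on in the ZC3H7A cells and in both HEK293 groups of the depletion experiment, and off in the ZC3H7B and control cells. The ratio of ZC3H7A to control reads was 1824 (3214 against 2 reads, 95% interval 504.4 to 15065), and DD libraries averaged 2.07 times the Parental libraries.

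The dense-core granule cargo genes CHGA and CHGB, chromogranins A and B, rose in all 3 perturbed groups. CHGA had 84, 78.2 and 75.2 in ZC3H7A, 121.9, 100.4 and 94.1 in ZC3H7B and 46.1, 44.6 and 49.7 in control libraries. In DD libraries CHGA had 94.7, 85.3 and 107.4, against 22.2, 27.1 and 19.6 in Parental libraries (137 against 30 reads, a ratio of 4.21 with a 95% interval of 2.82 to 6.48). No perturbed library overlapped its controls, and the ZC3H7B libraries also lay above the ZC3H7A libraries. The log2 fold change of CHGA was 0.74 (SE 0.11, limma adjusted p = 5.54e-05) for ZC3H7A, 1.15 (SE 0.11, limma adjusted p = 2.19e-06) for ZC3H7B and 2.02 (SE 0.248, limma adjusted p = 1.09e-04) for DD. Between the overexpressions CHGA was lower with ZC3H7A by 0.40 on the log2 scale, written as -0.40 for ZC3H7A over ZC3H7B (limma adjusted p = 0.0106, and 0.0504 without ZC3H7B replicate 1).

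CHGB had 246.3, 224.9 and 247.5 in ZC3H7A, 321.1, 338.9 and 314.5 in ZC3H7B and 159.2, 147.7 and 141.2 in control libraries and these groups did not overlap. DD libraries had 89, 173.0 and 122.2 of CHGB, against 31.1, 49.3 and 32.7 in Parental libraries. CHGB gave log2 fold changes of 0.68 (SE 0.0711, limma adjusted p = 3.08e-06) for ZC3H7A, 1.12 (SE 0.0711, limma adjusted p = 8.43e-08) for ZC3H7B and 1.72 (SE 0.279, limma adjusted p = 7.80e-04) for DD, and ZC3H7A over ZC3H7B gave -0.44 (limma adjusted p = 3.56e-04). Of the 11 chromaffin and sympathetic markers, 5 were tested with overexpression and 4 with depletion. With ZC3H7A 2 rose and 1 fell (34.7% and 41.2% of all tested genes did so). With ZC3H7B 1 rose and 2 fell (32% and 37.6% of all tested genes), and in DD 1 rose and 1 fell (14.7% and 14.8%). The part of these markers in the chromogranin values was not tested.

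Of the 4 intermediate filament genes, INA passed upward in all 3 perturbed groups, and NEFM and NEFH could not be tested in the depletion libraries. INA, alpha-internexin, had 2705, 2627 and 2571 in ZC3H7A, 3246, 3212 and 3162 in ZC3H7B and 1167, 1204 and 1154 in control libraries. DD libraries had 2210, 2094 and 1978 of INA, against 1263, 1287 and 1207 in Parental libraries. These libraries did not overlap, and ZC3H7B cells were highest. INA gave log2 fold changes of 1.16 (SE 0.0401, limma adjusted p = 9.42e-10) for ZC3H7A, 1.45 (SE 0.0401, limma adjusted p = 3.60e-10) for ZC3H7B, -0.28 (SE 0.0401, limma adjusted p = 1.25e-04) for ZC3H7A over ZC3H7B and 0.74 (SE 0.0735, limma adjusted p = 2.33e-05) for DD.

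NEFL, the subunit with which the other neurofilament chains assemble, moved less. It averaged 4483 ± 156.9 in ZC3H7A, 5610 ± 67.7 in ZC3H7B and 4782 ± 60.3 in control libraries, and 4055 ± 221.2 in DD against 5688 ± 443.2 in Parental libraries (SD, n = 3 each). NEFL rose with ZC3H7B (log2 fold change 0.23, limma adjusted p = 1.70e-04) and fell in DD (-0.49, limma adjusted p = 5.18e-04). The ZC3H7A call (-0.09, limma adjusted p = 0.04) was lost in edgeR (0.185), in DESeq2 (0.502) and without any 1 of ZC3H7A replicate 2 and the 3 controls, with adjusted p between 0.0567 and 0.144. NEFM, the medium subunit, averaged 26.6 ± 5.89 in ZC3H7A, 26.6 ± 2.09 in ZC3H7B and 31.8 ± 5.25 in control libraries, and NEFH, the heavy subunit, 23.5 ± 1.35, 14.9 ± 1.37 and 21.9 ± 7.5 in the same groups. Neither passed against control (limma adjusted p = 0.211 and 0.257 for NEFM, 0.558 and 0.0663 for NEFH, with ZC3H7A first), and in the depletion libraries both were too low to test. Antisense genes overlap 38.9% of the exonic bases of NEFM and 11.3% of those of NEFL, and the sources used here do not say whether the authors counted by strand.

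CRMP1 and DPYSL3, a pair of collapsin response mediator proteins of growing axons, rose in all 3 perturbed groups. CRMP1 had 2238, 2170 and 1961 in ZC3H7A, 1420, 1365 and 1347 in ZC3H7B and 818.5, 781.9 and 799.7 in control libraries. DD libraries had 1969, 2255 and 2092 of CRMP1, against 672.8, 719.9 and 675.3 in Parental libraries. The groups of each experiment did not overlap. CRMP1 gave log2 fold changes of 1.40 (SE 0.0539, limma adjusted p = 1.52e-09) for ZC3H7A, 0.78 (SE 0.0539, limma adjusted p = 1.53e-07) for ZC3H7B and 1.61 (SE 0.08, limma adjusted p = 1.78e-07) for DD, and it was higher with ZC3H7A than with ZC3H7B (0.62, limma adjusted p = 2.36e-06). DPYSL3 averaged 5405 ± 277.7 in ZC3H7A, 5172 ± 162.5 in ZC3H7B and 2945 ± 16.4 in control libraries, and 5013 ± 260.8 in DD against 3677 ± 689.6 in Parental libraries (SD, n = 3 each). DPYSL3 rose by 0.87 (limma adjusted p = 8.88e-09), 0.81 (2.82e-08) and 0.46 (0.00769) on the log2 scale with ZC3H7A, ZC3H7B and DD.

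Of the beta-tubulins, TUBB3 and TUBB2A rose in all 3 perturbed groups and TUBB2B did not. TUBB3, class III beta-tubulin, averaged 380.4 ± 35.2 in ZC3H7A, 395.3 ± 27.7 in ZC3H7B and 226.3 ± 9.4 in control libraries, and 475.9 ± 50.4 in DD against 293.7 ± 18.1 in Parental libraries (SD, n = 3 each). TUBB3 rose by 0.74 (limma adjusted p = 3.69e-06), 0.80 (2.89e-06) and 0.69 (8.91e-04) on the log2 scale with ZC3H7A, ZC3H7B and DD, and its count is uncertain because another protein-coding gene on the same strand overlaps 35.8% of its exonic bases. TUBB2A, a beta-tubulin of brain, averaged 607.4 ± 35.9, 490.9 ± 33.1 and 306.3 ± 19.7 in ZC3H7A, ZC3H7B and control libraries and 756.1 ± 73.8 in DD against 588.9 ± 65.8 in Parental libraries. TUBB2A rose by 0.99 (limma adjusted p = 1.43e-07), 0.68 (4.58e-06) and 0.36 (0.0252) on the log2 scale, and the DD call was lost without DD replicate 1 or 2 (adjusted p = 0.129 and 0.0554) or Parental replicate 1 or 2 (0.0578 and 0.103). TUBB2B, a beta-tubulin of migrating neurons, averaged 914.3 ± 63.9, 1245 ± 49.8 and 1117 ± 13.2 in the overexpression groups and 938.7 ± 64.6 in DD against 1757 ± 185.3 in Parental libraries. TUBB2B fell with ZC3H7A (-0.29, limma adjusted p = 4.84e-04) and in DD (-0.90, limma adjusted p = 2.85e-05), and the call of 0.16 for ZC3H7B (limma adjusted p = 0.027) became -0.01 once the trend with base content was removed and was also lost without either of ZC3H7B replicates 1 and 2 or any 1 control (adjusted p 0.053 to 0.0977). The coding sequences of TUBB2A and TUBB2B are equal at 1313 of 1338 positions (98.1%), with a longest identical stretch of 725 bases, so reads could be split between them and both values are uncertain.

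MAP2, a microtubule-associated protein of dendrites, fell with both overexpressions and rose with depletion. It had 74.4, 76 and 101.9 in ZC3H7A, 43.1, 43 and 45.2 in ZC3H7B and 138.4, 135.1 and 142.8 in control libraries. DD libraries had 214.0, 220.3 and 225.4 of MAP2, against 104.4, 118.3 and 74.1 in Parental libraries. The groups of each experiment did not overlap, and MAP2 was lowest with ZC3H7B. MAP2 gave log2 fold changes of -0.73 (SE 0.116, limma adjusted p = 1.03e-04) for ZC3H7A, -1.64 (SE 0.116, limma adjusted p = 1.94e-07) for ZC3H7B, 0.91 (SE 0.116, limma adjusted p = 5.55e-05) for ZC3H7A over ZC3H7B and 1.17 (SE 0.183, limma adjusted p = 6.07e-04) for DD. MAP1B, the microtubule-associated protein of growing axons, averaged 4766 ± 543.8, 5068 ± 208.8 and 4978 ± 90.4 in ZC3H7A, ZC3H7B and control libraries, which overlapped, and passed neither test (limma adjusted p = 0.369 and 0.755). In DD it averaged 9603 ± 647.0, against 12741 ± 1823 in Parental libraries, and fell (-0.40, limma adjusted p = 0.00754). GAP43, a growth cone phosphoprotein, averaged 8.84 ± 2.21, 8.28 ± 1.67 and 8.51 ± 2.75 in the overexpression groups and was not tested there. GAP43 had 24 reads in DD against 9 in Parental libraries, a ratio of 2.46 (95% interval 1.1 to 6.02), and did not pass (limma adjusted p = 0.116).

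UCHL1, the highest of these transcripts per kilobase, rose with both overexpressions and fell with depletion. It had 17680, 16816 and 16016 in ZC3H7A, 20887, 20605 and 19708 in ZC3H7B and 12090, 12898 and 12799 in control libraries. DD libraries had 9285, 8434 and 8293, against 10829, 12087 and 11886 in Parental libraries. No perturbed library overlapped its controls. UCHL1 changed by 0.42 (SE 0.0447, limma adjusted p = 3.58e-06) for ZC3H7A, 0.70 (SE 0.0447, limma adjusted p = 8.91e-08) for ZC3H7B and -0.42 (SE 0.0707, limma adjusted p = 9.68e-04) for DD on the log2 scale, which is the reverse of the pattern of MAP2. ELAVL2, which binds AU-rich RNA, averaged 850.8 ± 123.9, 800.5 ± 46 and 855.4 ± 10.3 in ZC3H7A, ZC3H7B and control libraries and 935.2 ± 40.7 in DD against 894.1 ± 62.4 in Parental libraries, and passed no test (limma adjusted p = 0.859, 0.329 and 0.606). With the base-content trend removed, ELAVL2, whose transcript is 63.2% A+T, changed by 0.79 (adjusted p = 1.22e-11) with ZC3H7A and 0.70 (8.94e-11) with ZC3H7B. ELAVL3 had 15 reads over the ZC3H7A libraries, 37 over the ZC3H7B libraries and 58 over the control libraries, a ratio of 3.41 between control and ZC3H7A (95% interval 1.91 to 6.47, lower with ZC3H7A), and 7 against 5 reads in DD and Parental.

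The adhesion molecules NCAM1 and L1CAM changed by less than 2-fold in every comparison with a control. NCAM1 averaged 1022 ± 76, 1279 ± 22.7 and 1412 ± 41 in ZC3H7A, ZC3H7B and control libraries and 2606 ± 59.5 in DD against 2403 ± 214.0 in Parental libraries (SD, n = 3 each). It fell with ZC3H7A (-0.47, limma adjusted p = 8.37e-06), while the fall of 0.14 with ZC3H7B, written as -0.14 (limma adjusted p = 0.0371), was lost in edgeR (0.195), in DESeq2 (0.237) and without any 1 of the ZC3H7B libraries or of controls 1 and 2 (adjusted p 0.0599 to 0.119). NCAM1 did not pass in DD (0.12, limma adjusted p = 0.267). L1CAM, an axonal adhesion molecule, averaged 83.1 ± 18.7, 76.8 ± 3.83 and 65 ± 9.6 in ZC3H7A, ZC3H7B and control libraries and 138.7 ± 22.3 in DD against 141.4 ± 16.4 in Parental libraries. L1CAM passed no test in limma (adjusted p = 0.0718, 0.183 and 0.906), and passed for ZC3H7A in edgeR (log2 fold change 0.39, adjusted p = 0.0374), in DESeq2 (0.41, adjusted p = 0.0239) and without ZC3H7A replicate 3 (0.52, adjusted p = 0.00236).

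TENM1 and DLGAP1, treated as chosen by their values, were low in both overexpression groups, and they parted in the depletion experiment. TENM1, a teneurin, a transmembrane adhesion protein, had 30.1, 15.5 and 35.5 in ZC3H7A, 4.9, 3.76 and 8.84 in ZC3H7B and 1178, 1047 and 1045 in control libraries. DD libraries had 157.2, 130.3 and 162.2 of TENM1, against 2218, 1430 and 1135 in Parental libraries. TENM1 was thus 40.3-fold lower in ZC3H7A than in control cells, 186.9-fold lower in ZC3H7B than in control cells and 10.6-fold lower in DD than in Parental cells. DLGAP1, a scaffold protein of the postsynaptic density, had 5.13, 2.68 and 1.78 in ZC3H7A, 1.47, 1.07 and 2.6 in ZC3H7B and 102.9, 96.2 and 103.1 in control libraries. DD libraries had 255.6, 246.4 and 278.0 of DLGAP1, against 22.2, 22.2 and 24 in Parental libraries. DLGAP1 was 32.3-fold lower with ZC3H7A (16 against 586 reads, 95% interval 19.7 to 56.8), 58.8-fold lower with ZC3H7B (10 against 586 reads, 31.8 to 123.3) and 11.4-fold higher in DD (371 against 30 reads, 7.86 to 17.2).

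The 3 transport genes, also treated as chosen by their values, each had a different order of groups. NALCN, the sodium leak channel of neurons, had 278.4, 274.7 and 282.5 in ZC3H7A, 37.7, 42.4 and 39.5 in ZC3H7B and 2.31, 1.72 and 1.59 in control libraries. DD libraries had 255.6, 281.9 and 379.2 of NALCN, against 82.2, 71.5 and 58.8 in Parental libraries. NALCN was 146.9-fold higher in ZC3H7A than in control cells (1424 against 11 reads, 95% interval 81.9 to 295.0), 21-fold higher in ZC3H7B than in control cells (232 against 11 reads, 11.5 to 42.7) and 4.31-fold higher in DD than in Parental cells. SLC24A2, a potassium-dependent sodium-calcium exchanger, had 32.7, 26.2 and 24.9 in ZC3H7A, 1.47, 4.83 and 2.08 in ZC3H7B and 4.61, 6.87 and 5.82 in control libraries, so the ZC3H7B and control libraries overlapped. DD libraries had 378.7, 372.0 and 410.7 of SLC24A2, against 28.9, 39.4 and 32.7 in Parental libraries. SLC24A2 was 4.84-fold higher in ZC3H7A than in control cells, 2.07-fold lower in ZC3H7B than in control cells (16 against 33 reads, 95% interval 1.11 to 4.03) and 11.5-fold higher in DD than in Parental cells. SLC6A11, the GABA transporter GAT3, had no read in ZC3H7A, 1 read in ZC3H7B and 367, 285 and 332 reads in control libraries, and no read in DD against 12, 14 and 8 reads in Parental libraries. Taking 3 reads over a group as the floor, SLC6A11 was at least 289.0-fold lower in ZC3H7A than in control cells and at least 12.3-fold lower in DD than in Parental cells, and it was 988.0-fold lower in ZC3H7B than in control cells (1 against 984 reads, 95% interval 176.9 to 39063).

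**Figure D3:**
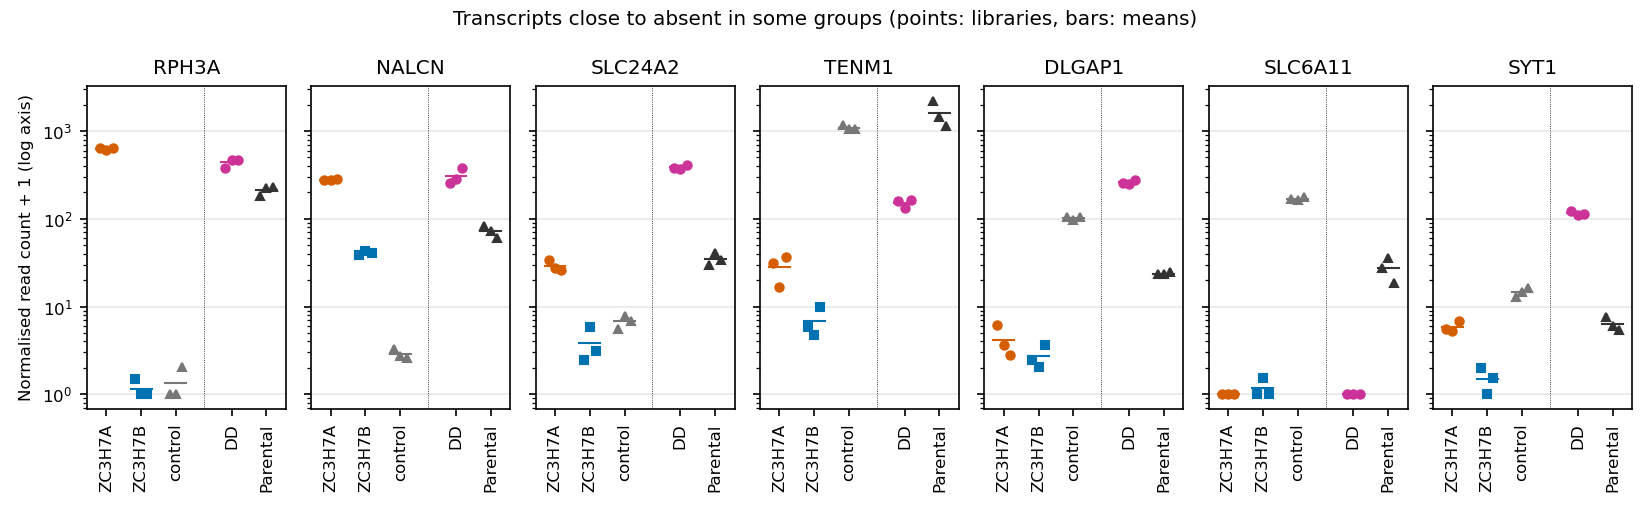
Normalised read counts plus 1 (log axis) of the 6 genes treated as chosen by their values and of SYT1, with 1 point per library and a bar at each group's mean, in ZC3H7A, ZC3H7B and control cells and, right of the dotted line, in DD and Parental cells. RPH3A, NALCN and SLC24A2 are highest among the overexpression groups with ZC3H7A, TENM1, DLGAP1, SLC6A11 and SYT1 in control, and only TENM1 and SLC6A11 are lower in DD than in Parental cells.

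For these 6 genes the levels in Parental and in control cells are set side by side, which was decided after their values were seen. RPH3A averaged 211.6 ± 26 in Parental and 0.353 ± 0.611 in control libraries, NALCN 70.8 ± 11.7 and 1.87 ± 0.384, and SLC6A11 26.2 ± 8.55 and 169.4 ± 6.23 (SD, n = 3 each). In the same order, DLGAP1 averaged 22.8 ± 1.02 and 100.7 ± 3.96, and SLC24A2 33.7 ± 5.36 and 5.77 ± 1.13. TENM1 averaged 1594 ± 560.0 and 1090 ± 76.6, and its libraries overlapped. The experiments differ in cells, library protocol and depth, which cannot be told apart here, and no test was made.

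CHGA, CHGB, CPLX2, CRMP1, DPYSL3, INA, SYN1, SYP, TUBB2A and TUBB3 rose both in ZC3H7A over control and in DD over Parental, comparisons that share no library. They are 10 of the 21 genes tested in both fits (47.6%), against 7.91% of the 16165 genes tested in both. NEFL and TUBB2B fell in both (9.52%, against 6.46%), and MAP2, SNAP25, SYT1 and UCHL1 passed in opposite directions (19%, against 11.6%). In ZC3H7B over control, which uses the same controls as ZC3H7A over control, and in DD, the count that rose in both was 10 of 21 (47.6%, against 6.85%), none fell in both (0 of 21, against 5.25%), and MAP2, NEFL, SYT1, TUBB2B and UCHL1 passed in opposite directions (23.8%, against 11.9%). SYT1 is counted in these opposite directions although it passed each filter through 1 group.

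**Figure D4:**
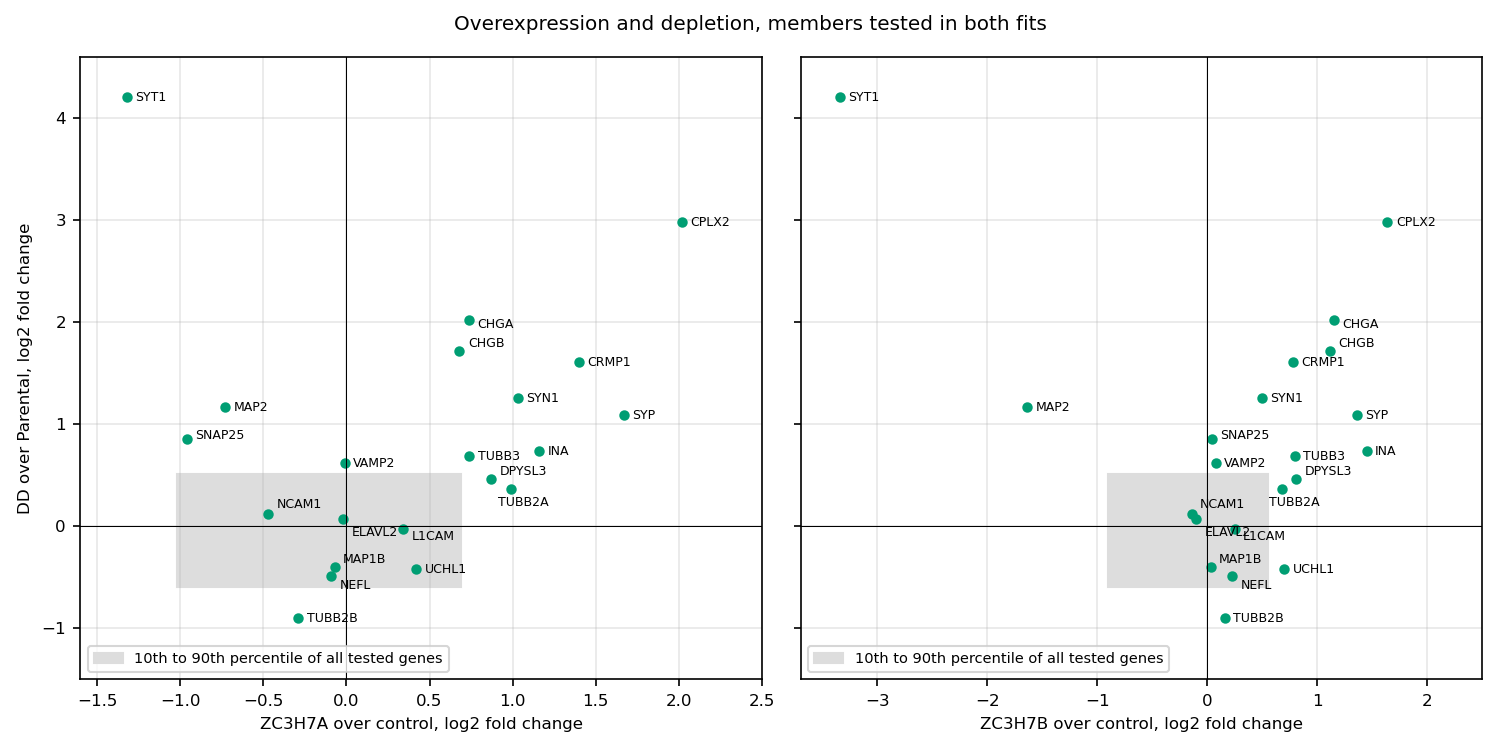
Log2 fold changes of the 21 genes tested in both fits, with DD over Parental on the vertical axis and ZC3H7A over control (left) or ZC3H7B over control (right) on the horizontal axis, and a grey box from the 10th to the 90th percentile of all tested genes on each axis. CPLX2, SYP, CHGA, TUBB3, INA and CRMP1 lie above and right of the box in both panels, SYT1 and MAP2 lie above it and left of 0, and TUBB2B lies below it.

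REST, the repressor that binds RE1, fell with both overexpressions and did not pass with depletion. It averaged 899.1 ± 126.6 in ZC3H7A, 919.7 ± 76.8 in ZC3H7B and 1656 ± 32 in control libraries, and 1156 ± 88 in DD against 1125 ± 39.4 in Parental libraries (SD, n = 3 each). The log2 fold change of REST was -0.89 (SE 0.0879, limma adjusted p = 1.88e-06) for ZC3H7A, -0.85 (SE 0.0879, limma adjusted p = 3.91e-06) for ZC3H7B and 0.04 (SE 0.082, limma adjusted p = 0.774) for DD, and for ZC3H7A and DD it was chosen after its values were seen. Of the 15 genes of REST and its corepressors, 8 rose and 3 fell with ZC3H7A, 9 rose and 5 fell with ZC3H7B, and 2 rose and 3 fell in DD. Beside these and the lists that follow, 34.7% of all tested genes rose and 41.2% fell with ZC3H7A, 32% rose and 37.6% fell with ZC3H7B, and 14.7% rose and 14.8% fell in DD. RCOR3, a CoREST subunit, fell with ZC3H7A (-0.83 on the log2 scale, limma adjusted p = 1.59e-07) and with ZC3H7B (-0.70, 9.53e-07), and CTDSPL, a small CTD phosphatase, fell in DD (-1.51, limma adjusted p = 1.78e-06). Other genes of this list rose. SIN3B rose with ZC3H7A (0.62, limma adjusted p = 2.35e-07), and RCOR1 rose with ZC3H7B (0.53, 1.09e-06) and in DD (0.29, 0.00759). CTDSP2 rose with ZC3H7A (0.58, limma adjusted p = 4.32e-07) and fell in DD (-0.52, 1.32e-04).

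Other genes of the same pathways gave mixed counts, read beside the shares of all tested genes (34.7% rose and 41.2% fell with ZC3H7A, 32% and 37.6% with ZC3H7B, 14.7% and 14.8% in DD). Of the other SNARE and release genes, 12 rose and 13 fell of 33 tested with ZC3H7A (median log2 fold change 0.05), 14 rose and 8 fell of 33 with ZC3H7B (0.06), and 10 rose and 5 fell of 32 in DD (0.09), beside medians over all tested genes of -0.07, -0.06 and 0.01. UNC13A, which primes vesicles, rose by 2.17 (limma adjusted p = 1.18e-09) with ZC3H7A and 1.19 (1.23e-07) with ZC3H7B on the log2 scale. CPLX1, complexin 1, rose by 1.24 (limma adjusted p = 8.52e-09) and 0.88 (1.89e-07) in the same comparisons. Of the other vesicle and granule genes, 8 rose and 5 fell of 16 with ZC3H7A, 6 rose and 4 fell of 16 with ZC3H7B, and 7 rose and 1 fell of 17 in DD. SCAMP5, a vesicle membrane protein, rose in all 3, by 1.04 (limma adjusted p = 3.48e-08), 0.90 (1.78e-07) and 1.48 (3.15e-07), while CPE, which trims granule peptides, fell by 0.64 with each overexpression (limma adjusted p = 5.61e-08 and 9.93e-08) and rose by 0.52 in DD (4.12e-04).

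Cytoskeletal genes outside the 34 are set beside the same shares of all tested genes (34.7% rose and 41.2% fell with ZC3H7A, 32% and 37.6% with ZC3H7B, 14.7% and 14.8% in DD). Of the other tubulins, 8 rose and 3 fell of 15 with ZC3H7A (median log2 fold change 0.59), 9 rose and 3 fell of 15 with ZC3H7B (0.45), and 1 rose and 4 fell of 14 in DD (-0.04). TUBB4A, a brain beta-tubulin, rose by 1.96 (limma adjusted p = 1.56e-09) with ZC3H7A and 1.25 (5.78e-08) with ZC3H7B, and TUBA1B, an alpha-tubulin, rose by 1.07 (1.71e-08) and 0.82 (2.42e-07) and fell by 0.22 in DD (0.0333). The list of other microtubule proteins and filaments was not only neuronal and held VIM and MAP4. Of its genes, 16 rose and 2 fell of 20 with ZC3H7A (median 0.64), 14 rose and 6 fell of 20 with ZC3H7B (0.47), and 9 rose and 4 fell of 19 in DD (0.13). STMN3, a stathmin, rose in all 3 comparisons, by 1.98 (limma adjusted p = 3.78e-10), 1.65 (2.60e-09) and 0.66 (2.97e-05). DPYSL4, a relative of CRMP1, rose by 1.28 (limma adjusted p = 7.29e-09) with ZC3H7A and 1.55 (8.94e-07) in DD. BASP1, a growth cone protein, fell by 1.73 (limma adjusted p = 7.02e-11) with ZC3H7A and by 0.96 (3.65e-06) in DD.

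Listed RNA-binding, adhesion, transport and transcription factor genes moved in both directions, as did all tested genes (34.7% rose and 41.2% fell with ZC3H7A, 32% and 37.6% with ZC3H7B, 14.7% and 14.8% in DD). The list of other RNA-binding proteins held ELAVL1, FXR1 and FXR2 beside neuronal ones. Of its genes, 8 rose and 6 fell of 18 with ZC3H7A, 9 rose and 5 fell of 18 with ZC3H7B, and 4 rose and 3 fell of 17 in DD. NOVA2, a neuronal splicing factor, rose in all 3, by 3.00 (limma adjusted p = 4.74e-11), 2.03 (1.95e-09) and 0.96 (3.67e-05). Of 27 other adhesion and scaffold genes, 13 rose and 9 fell with ZC3H7A, 8 rose and 12 fell with ZC3H7B, and 7 rose and 3 fell in DD. TENM3, a relative of TENM1, fell by 0.69 in DD (limma adjusted p = 1.55e-05), and DLGAP3, a relative of DLGAP1, rose by 1.23 with ZC3H7A (limma adjusted p = 1.47e-07). The next list held NALCN partners, GABA transporters, exchangers and other SLC6 transporters (SLC6A6, SLC6A8 and SLC6A9). Of 12 tested, 6 rose and 2 fell with ZC3H7A, 7 rose and 3 fell with ZC3H7B, and 2 rose and 3 fell in DD. FAM155B, a relative of the NALCN subunit FAM155A, rose in all 3, by 1.08 (limma adjusted p = 4.36e-08), 0.95 (1.99e-07) and 0.76 (2.44e-05). The list of neurogenic transcription factors also held HES and ID genes, and not every gene in it promotes neuron formation. Of its genes, 10 rose and 5 fell of 17 with ZC3H7A, 7 rose and 6 fell of 17 with ZC3H7B, and 3 rose and 4 fell of 16 in DD. ID3 changed by 0.81 with ZC3H7B (limma adjusted p = 2.11e-07) and by -0.74 in DD (0.00387). INSM1, a factor of neuroendocrine cells, rose in all 3, by 1.95 (limma adjusted p = 1.84e-10), 0.80 (1.51e-07) and 0.46 (6.54e-04).

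Fold changes in the overexpression experiment followed base composition across all genes. With genes cut into 10 bins by their share of A- or T-ending codons, from the fewest to the most, the bin median log2 fold change ran from 0.38 to -0.76 for ZC3H7A, from 0.24 to -0.61 for ZC3H7B and from 0.05 to 0.11 for DD. The 34 genes had a median of 32.2% such codons, against 39.7% in the 13838 genes with codons and a count of 10 or more in 3 or more of 15 libraries. CPLX2 (11.9%), TUBB3 (8.67%), TUBB2A (11.7%), INA (20%) and SYP (21.1%), all low in such codons, rose with both overexpressions, as did DPYSL3 (33.2%) and CHGB (41.9%). MAP2 (60.8%) fell with both. Other genes did not follow that order: TUBB2B (13.3%) and NEFL (22.8%), low in such codons, fell with ZC3H7A, NCAM1 (31.2%) fell with both overexpressions, and ELAVL2 (54%) and MAP1B (52%), high in them, passed neither test. Each library's trend with transcript A+T share was removed over the 15214 genes with a transcript, against 17673 tested before. The share of called genes that rose was 56% with the trend removed, 48.7% in the same 15214 genes without that step and 45.7% in all genes for ZC3H7A, and 56.9%, 48.8% and 45.9% for ZC3H7B. The median over these genes was 0.05 with the trend removed and -0.03 without that step for ZC3H7A, against -0.07 in all genes, and 0.05 and -0.02, against -0.06, for ZC3H7B. After that step the log2 fold changes with ZC3H7A and ZC3H7B were 1.79 and 1.48 for CPLX2, 1.42 and 1.19 for SYP, 0.44 and 0.97 for CHGA, 1.09 and 1.37 for INA and 1.18 and 0.62 for CRMP1, all still called in limma. MAP2 changed by -0.35 and -1.31 and was still called, while SYN1 with ZC3H7B (0.32, limma adjusted p = 0.108) was not. VAMP2, not called before that step, became -0.40 with ZC3H7A (limma adjusted p = 1.39e-08) and -0.10 with ZC3H7B (0.0139). Beside ELAVL2, calls were gained with ZC3H7B for SNAP25 (0.31, limma adjusted p = 0.00417), NEFH (-0.64, 0.0123) and MAP1B (0.17, 0.0142). With ZC3H7A a call was gained for NEFM (-0.42, limma adjusted p = 0.047).

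**Figure D5:**
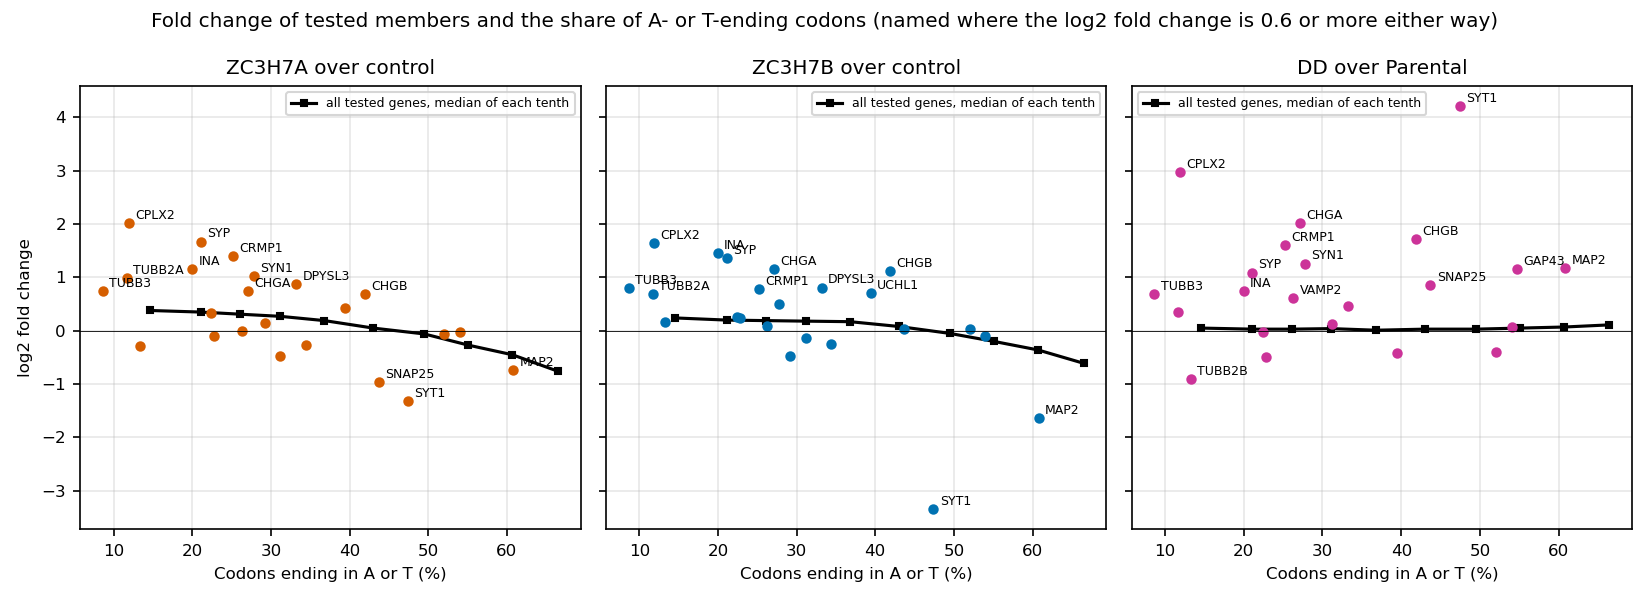
Log2 fold change against the percentage of A- or T-ending codons, for the tested genes chosen by function (coloured points) and as the median of each of 10 bins of all tested genes (black squares), in ZC3H7A over control, ZC3H7B over control and DD over Parental. The black line drops to -0.76 with ZC3H7A and -0.61 with ZC3H7B in the last bin and stays within 0.01 to 0.11 in DD.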

How the data were processed

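RNA-seq of poly(A) RNA from 15 libraries, 3 in each of 5 groups, was read from 1 table of normalised counts, a signal that the authors had deposited. The tools used, per the submitters' processing notes, included HTSeq, DESeq2 and STAR 2.7.10b, with the hg19 genome, while the role and settings of each, the annotation and the strand setting are not given in the sources used here. In every library 100% of the deposited signal values were multiples of the value of 1 read to within 0.01 reads, so whole reads were recovered. Groups follow the sample labels.

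Values were tested as log2(value + 1) with limma 3.58.1 in R 4.3.3 (empirical Bayes with a mean-variance trend), over genes that reached 10 in 3 or more libraries of the fit, two-sided, called under a Benjamini-Hochberg adjusted p of 0.05. Fold changes on this scale understate those of low genes. The 9 overexpression libraries shared a fit and the 6 depletion libraries had their own. Alternatives were pseudocounts of 0.5 and 10, no filter, TMM scaling, edgeR 4.0.16 and DESeq2 1.42.0 on recovered reads, a replicate block, fits of only the 2 groups compared, removal of a trend with transcript A+T share (a spline with 4 degrees of freedom) and leaving out each library. A fit of only the genes with a transcript was added after seeing the data. The fitting code was checked on simulated counts. With 30 or fewer reads over a group, ratios of reads with 95% exact intervals are given, and folds against no read are bounds against 3 reads over the group.

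The members and all lists were chosen with earlier results of these data known. All 34 members may be named, and from each list the 3 genes with the lowest adjusted p among those called in a comparison. The lists were those counted in the text and markers of glia, chromaffin and sympathetic cells, kidney epithelium, fibroblasts and leukocytes. Transcripts came from GENCODE 29 (34273 names matched directly and 1149 as older symbols, covering 82.3% of the genes tested and all 34 members), and 28 date-like names were not matched. Promoters came from RefSeq, GRCh38.p14. Computation used Python 3.11.15, numpy 2.4.6, pandas 2.3.3, scipy 1.17.1 and matplotlib 3.10.9. Some genes that this rule selects are not reported here.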

Additional observations from a re-analysis of the deposited data

How the results depend on the processing

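Of 1421 recomputed fold changes of the tested genes, 1322 kept their direction and their side of the threshold, 54 kept their direction but were no longer called, 18 became called and 27 changed sign. Of the 27, 23 were called in neither fit. The other 4 arose with the base-content trend removed: ELAVL2 was 0.79 with ZC3H7A and 0.70 with ZC3H7B, and with ZC3H7B VAMP2 was -0.10 and TUBB2B -0.01. That step also gave -0.08 for NEFH and 0.13 for MAP1B with ZC3H7A, and -0.00 for L1CAM in ZC3H7A over ZC3H7B. With ZC3H7A, VAMP2 and ELAVL2 were 0.02 and 0.01 with TMM scaling, 0.02 and 0.02 in edgeR and 0.04 and 0.04 in DESeq2. With 1 library left out, ZC3H7A over control gave -0.15 to 0.02 for MAP1B, -0.13 to 0.08 for ELAVL2, -0.03 to 0.02 for VAMP2 and -0.10 to 0.38 for NEFH, and ZC3H7B over control -0.01 to 0.05 for MAP1B. ZC3H7A over ZC3H7B gave -0.16 to 0.15 for NEFM, -0.06 to 0.27 for L1CAM, -0.12 to 0.02 for TUBB3 and -0.03 to 0.18 for ELAVL2, and DD over Parental -0.16 to 0.06 for L1CAM. The lost calls were those of NEFL with ZC3H7A, SYN1 with ZC3H7B and in DD, NCAM1 and TUBB2B with ZC3H7B, TUBB2A in DD, and NEFH, SYN1 and CHGA between the overexpressions, and L1CAM with ZC3H7A and VAMP2 with ZC3H7B were among those gained. The genes called in DD over Parental numbered 5448, and 3563 to 6803 with 1 library left out, the lowest of these without DD replicate 1 (1561 rose, 2002 fell). Same-numbered ZC3H7A and ZC3H7B libraries deviated together for numbers 1 and 3 (correlations of 0.54 and 0.72) but not for number 2 (0.08), ZC3H7A replicate 2 correlating best with ZC3H7B replicate 1 (0.56). With controls the correlations were -0.16 to 0.13, and between DD and Parental -0.01, -0.05 and -0.27. Not every pair passed 0.1, so the numbers were not taken to pair the libraries. With a replicate block 17, 16, 16 and 16 of the tested genes were called for ZC3H7A, ZC3H7B, ZC3H7A over ZC3H7B and DD, and 4542 genes in DD, where SYN1 (adjusted p = 0.0626) and TUBB2A (0.0503) were lost. The depletion libraries hold 12.2 to 15.5 M reads, and NEFM, NEFH and ELAVL3 did not reach a count of 10 in 3 libraries there. Fits of only the genes with a transcript, chosen after seeing the data, changed no call of the tested genes.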
